A study of Homo sapiens with 15 samples.

Results

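hsa-miR-99a-5p, hsa-miR-100-5p and hsa-miR-125b-5p (below without the species prefix) are mature microRNAs, short RNAs that guide Argonaute proteins to messenger RNAs, and they are 3 of the 1619 entries in a small RNA count table from DiFi cells, a line established from a human colorectal cancer. They were taken from the table by name because they have been linked to resistance of colorectal cancer cells to cetuximab, an antibody against the epidermal growth factor receptor. The labels name no drug, so all libraries here come from DiFi cultures with no cetuximab treatment stated, and resistance itself was not measured. The series was made to try out culture conditions for collecting the carriers of small RNA that these cells secrete.

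Groups are named as in the labels. Filtered HDM and unfiltered HDM are the extracellular samples, cell pellets and the cells of plates 1, 2 and 3 are the cellular ones, and each of these 6 groups has 1 library numbered HF6 and 1 numbered HF7. HDM media and regular media have 1 library each. The abbreviations HDM and HF are not spelled out in the labels, no agent, dose or time is given for any group, and all libraries share the same cell line. Whether HF6 and HF7 are separate cultures is not stated, so each p-value reflects the spread among libraries alone, which may be technical.

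The members belong to 2 seed families. A seed, bases 2 to 8 of a microRNA, carries most of its pairing to targets. miR-99a, miR-100 and miR-99b share a seed and are known to repress MTOR, a growth-controlling kinase, while miR-125b and miR-125a share another and are known to repress proapoptotic and p53 pathway genes. The genes lie in 3 related clusters that each combine a miR-99/100, a let-7 and a miR-125 gene. The cluster on chromosome 11 sits in the long non-coding RNA gene MIR100HG, and raised miR-100 and miR-125b from it have been described in cetuximab-resistant colorectal cells, where they target inhibitors of Wnt signalling.

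The sequences of the 3 microRNAs and their seed relatives are shown because miR-99a-5p and miR-100-5p are nearly the same molecule, which limits how reads can be assigned. Capitals mark the seed.
miR-99a-5p: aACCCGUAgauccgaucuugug
miR-100-5p: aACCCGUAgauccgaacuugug
miR-99b-5p: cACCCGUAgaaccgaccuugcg
miR-125b-5p: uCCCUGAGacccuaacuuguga
miR-125a-5p: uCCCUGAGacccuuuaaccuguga
Sequences are from RefSeq (GRCh38.p14), and all 5 were identical to the deposited ones after T was written as U. Counting positions from the 5′ end, miR-99a-5p differs from miR-100-5p at 1 of 22 bases (A16U, miR-100-5p base first). miR-99b-5p differs from miR-99a-5p at 4 (A1C, U11A, U16C and U21C, miR-99a-5p base first).

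In GRCh38, miR-100-5p lies at chr11:122152275-122152296 on the minus strand, in the gene MIR100 inside an intron of MIR100HG. miR-99a-5p lies at chr21:16539101-16539122 on the plus strand, in MIR99A inside an intron of the long non-coding RNA gene MIR99AHG. miR-125b-5p is made from both clusters, from MIR125B1 at chr11:122099809-122099830 (minus strand, MIR100HG intron) and from MIR125B2 at chr21:16590253-16590274 (plus strand, MIR99AHG intron). The mature sequence is the same at both places, so a miR-125b-5p read does not show its gene of origin.

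Library totals ran from 205738 to 4896917 counts, and the shallowest were HF7 unfiltered HDM (205738) and the HF7 cell pellet (313380). A count of 3, taken as the limit that a count of 0 allows, corresponds to between 0.613 and 14.6 CPM of total counts (counts divided by the library total and put on 1 common scale). Levels below are CPM scaled by TMM, which assumes that most microRNAs do not differ, and intervals cover counting error only, since the table holds no molecular identifiers. All values are relative to the other microRNAs of a library. Fewer molecules of a microRNA and more of the others cannot be told apart, and neither can fewer cells of a type and less RNA per cell. Of 8 colorectal epithelial markers, 8 were detected in every library, with summed levels of 181900 to 232000 TMM CPM in HDM and 281200 to 434100 in cells. Stromal markers, of which 3 of 5 were analysed here, held 0 to 1 counts in each HDM library and 0 to 8 in each cell library.

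miR-99a-5p was the most abundant of the 3 and ranked between 49th and 68th among entries. In HDM it stood at 1868 (HF6) and 1802 (HF7) TMM CPM in filtered and at 1759 and 1375 in unfiltered samples. In cells it stood at 3379 and 2940 TMM CPM in the HF6 and HF7 pellets, 3278 and 3586 on plate 1, 2415 and 2616 on plate 2, and 2454 and 2177 on plate 3. Every one of the 4 HDM libraries lay below every one of the 8 cell libraries, and the same held on CPM of total counts (1808 to 2086 in HDM against 2269 to 3275 in cells). Group means ordered the cells as plate 1 (3432 ± 218 TMM CPM), pellets (3159 ± 310), plate 2 (2515 ± 142) and plate 3 (2315 ± 196; SD, n = 2 each). The TMM CPM means of plate 1 and pellets, and of plates 2 and 3, differed by less than their summed SDs. This order depended on scaling: on CPM of total counts pellets (2554 ± 179) came below plate 2 (2616 ± 142).

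miR-125b-5p was the next in abundance, ranking between 74th and 93rd, and in TMM CPM its HDM and cell libraries overlapped. On CPM of total counts they did not, with 1040 to 1281 in HDM above 536 to 1034 in cells. In HDM it stood at 1148 (HF6) and 1086 (HF7) TMM CPM in filtered and at 985 and 791 in unfiltered samples. In cells it stood at 914 and 588 TMM CPM in the HF6 and HF7 pellets, 1114 and 1078 on plate 1, 835 and 996 on plate 2, and 824 and 802 on plate 3. The HF7 pellet was the lowest of all libraries, with 168 counts. Filtered HDM had the highest group mean, 1117 ± 43.4, next to plate 1 at 1096 ± 25.7, and the 2 did not differ beyond their SDs (n = 2 each).

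miR-100-5p was scarce in every library, with 0 to 18 counts. It had 6 (HF6) and 2 (HF7) counts in filtered and 14 and 0 in unfiltered HDM. In cells it had 18 and 2 counts in the HF6 and HF7 pellets, 13 and 8 on plate 1, 10 and 12 on plate 2, and 2 and 6 on plate 3. The 0 in HF7 unfiltered HDM, the shallowest library, allows up to 14.6 CPM of total counts, above the level in every other library. In TMM CPM the pellets were highest, at 6.54 (HF6) and 7.0 (HF7), and HF6 unfiltered HDM stood at 5.65, while the other replicated libraries lay between 0 and 3.88. The entry passed the filter on low counts through these 3 libraries alone, whereas miR-99a-5p and miR-125b-5p were over its limit of 3.89 CPM in all 12 libraries tested.

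**Figure D1:**
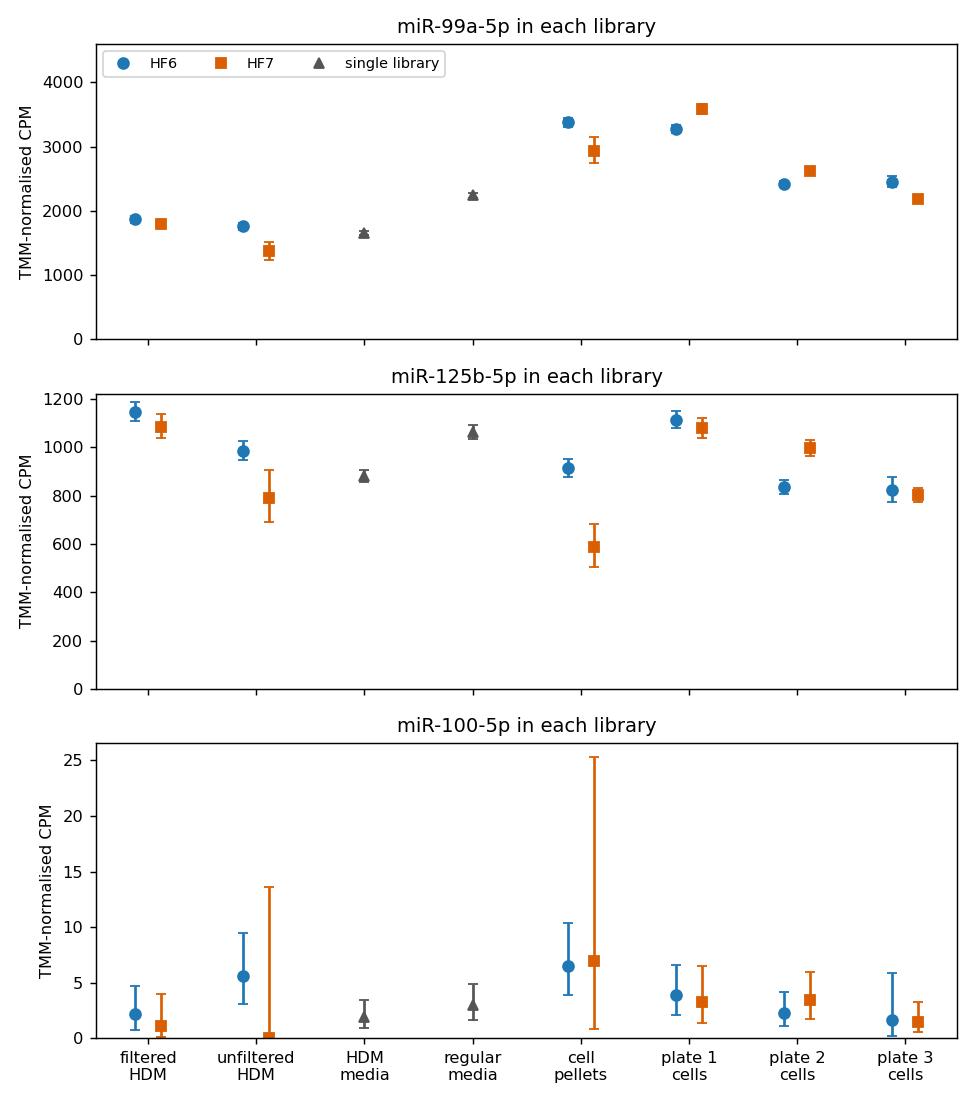
TMM CPM of miR-99a-5p, miR-125b-5p and miR-100-5p in each of the 14 libraries, with HDM at the left, media next and cells at the right; bars are exact Poisson 95% intervals for counting error. miR-99a-5p lies between 1375 and 1868 in the 4 HDM libraries and between 2177 and 3586 in the 8 cell libraries, while the other two microRNAs overlap.

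Reads of miR-100-5p and miR-99a-5p were not fully separated in the table. Their deposited values had equal fractional parts in 14 of 14 libraries, and in 6 of these both ended in 0.5 of a read, while miR-125b-5p was whole in every library. The rule by which reads were shared is not given in the sources used here. As a share of both entries together, miR-100-5p made up between 0% and 0.320% of reads. The highest share was in HF6 unfiltered HDM (0.320%, 95% Clopper-Pearson interval 0.175 to 0.536%), next to the HF7 pellet (0.238%, 0.0288 to 0.855%) and the HF6 pellet (0.193%, 0.115 to 0.305%). In HF7 unfiltered HDM it was 0 of 372, with an upper bound of 0.987%. The part of reads shared between the entries in the miR-100-5p values was not tested.

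Unfiltered HDM was compared with cell pellets to ask how extracellular and cellular content differ. miR-99a-5p was 2.01-fold lower in unfiltered HDM, at 1567 ± 272 TMM CPM against 3159 ± 310 in pellets (SD, n = 2 each), a log2 fold change of -1.01 ± 0.22 (edgeR quasi-likelihood test, Benjamini-Hochberg adjusted p = 0.00345; 95% interval -1.48 to -0.54). The difference was -0.94 within HF6 and -1.10 within HF7. miR-125b-5p averaged 888 ± 137 in unfiltered HDM and 751 ± 231 in pellets, a log2 difference of 0.24 ± 0.26 (-0.31 to 0.78) that did not pass the test. miR-100-5p did not pass either, at -0.48 ± 0.72 (-2.02 to 1.05). It stood at -6.93 without HF6 unfiltered HDM, where the library left has 0 counts, at -0.12 without HF7 unfiltered HDM, and at 0.095 with total-count scaling. One of the 3 was therefore called, where 30.9% of the 534 tested entries were called (77 higher, 88 lower; without HF6 unfiltered HDM, 67 in all). With total counts as the only scaling, miR-99a-5p stood at -0.45 (adjusted p = 0.0657) and miR-125b-5p at 0.82 (adjusted p = 0.00587). The median of all entries then moved to 0.64, against 0.06 under TMM, and 164 entries were called higher and 47 lower.

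Filtered HDM was compared with pellets in the same way. miR-99a-5p was 1.72-fold lower in filtered HDM, at 1835 ± 47.0 TMM CPM against 3159 ± 310 in pellets, a log2 fold change of -0.78 ± 0.22 (edgeR adjusted p = 0.0113; -1.25 to -0.32). miR-125b-5p averaged 1117 ± 43.4 in filtered HDM and 751 ± 231 in pellets, at 0.56 ± 0.26 (adjusted p = 0.0959; 0.015 to 1.10). miR-100-5p averaged 1.64 ± 0.74 in filtered HDM and 6.77 ± 0.32 in pellets, at -1.91 ± 0.75 (adjusted p = 0.0514), with 2 to 18 counts behind each library. The HF7 pellet, with 2 counts, had a counting interval of 0.848 to 25.3 TMM CPM. This entry passed the filter through both pellets and HF6 unfiltered HDM alone, so the comparison is not independent of that selection. Of all entries, 39.1% were called (97 higher, 112 lower; without HF6 filtered HDM, 136 in all). The miR-99a-5p call was lost without HF6 filtered HDM (-0.69, adjusted p = 0.119), without HF7 filtered HDM (-0.60, 0.133) and with total-count scaling (-0.36, 0.117; 176 entries higher, 71 lower, median 0.56). The miR-125b-5p difference passed the threshold in 7 of 21 alternatives, among them total-count scaling (1.01, adjusted p = 0.00106) and leaving out the HF6 pellet (1.01, 0.00373).

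HDM as a whole was also set against plate cells. miR-99a-5p was 1.60-fold lower in HDM, at 1701 ± 222 TMM CPM (n = 4) against 2754 ± 552 in plate cells (n = 6), a log2 fold change of -0.68 ± 0.14 (edgeR adjusted p = 0.00281; -0.98 to -0.37). It kept its direction and its call in 20 of 20 alternatives, total-count scaling included (-0.47, adjusted p = 0.00689). miR-125b-5p differed by 0.09 ± 0.16 (adjusted p = 0.713; -0.25 to 0.44). miR-100-5p differed by 0.19 ± 0.49 (adjusted p = 0.819; -0.87 to 1.24). It was not called, and stood at -0.08 without HF6 filtered HDM. It stood at -3.03 without HF6 unfiltered HDM, where the HDM libraries left hold 6, 2 and 0 counts. Among all entries 31.1% were called (80 higher, 86 lower; 128 and 60 with total-count scaling; 86 in all without HF6 filtered HDM and 89 without HF6 unfiltered HDM).

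Marker levels moved with HDM and cells as well. Of the 8 colorectal epithelial markers, 6 were called lower and 0 higher in HDM over plate cells, against 16.1% and 15% of all entries. Their median log2 fold change was -0.89, beside -0.68 for miR-99a-5p. Summed over the whole list, the 2 endothelial markers ran from 19.9 to 31.5 TMM CPM in HDM against 54.3 to 179 in cells. The sum of the 5 leukocyte markers ran from 1445 to 2886 TMM CPM in HDM against 2467 to 4144 in cells, but its members moved in both directions. In HDM over plate cells, miR-142-3p (log2 fold change -0.66) and miR-142-5p (-1.20) were lower, while miR-150-5p (4.79) and miR-155-5p (1.83) were higher, all called by edgeR, and miR-223-3p held 0 to 6 counts and was not tested. The 2 erythroid markers held 0 to 5 counts in each HDM library and 2 to 32 in each cell library, and the 3 muscle markers 1 to 30 and 16 to 92. Their part in the miR-99a-5p result was not tested.

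**Figure D2:**
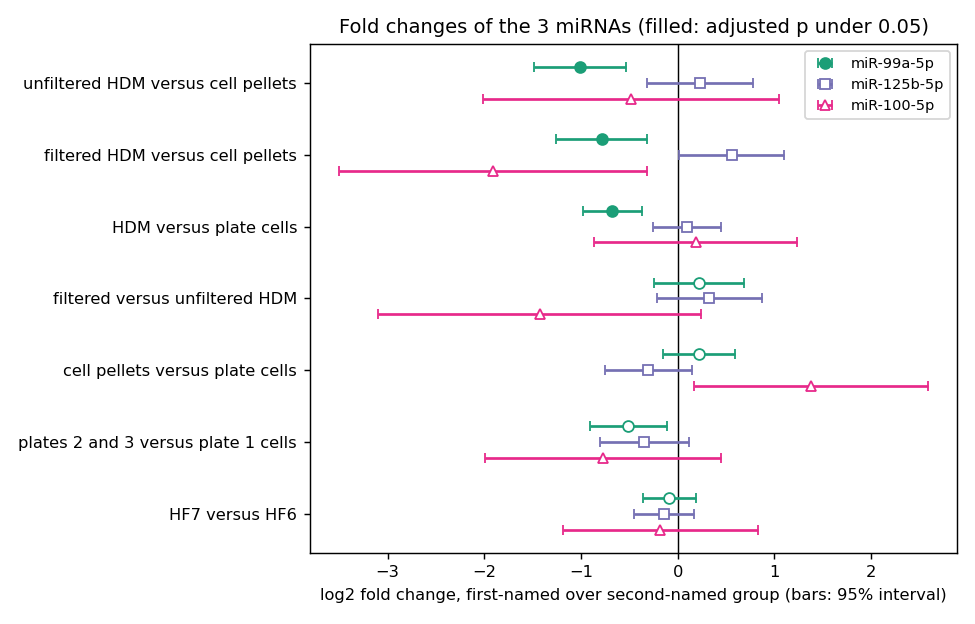
Log2 fold changes of the 3 microRNAs in the 7 comparisons, with 95% intervals from the edgeR fit; filled points have an adjusted p under 0.05. miR-99a-5p is called in the 3 comparisons of HDM with cells (-1.01, -0.78 and -0.68), and no point of miR-125b-5p or miR-100-5p is filled.

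Filtration of HDM gave no call for the 3 microRNAs. Filtered minus unfiltered HDM, miR-99a-5p differed by 0.22 ± 0.22 (-0.24 to 0.69), miR-125b-5p by 0.33 ± 0.26 (-0.22 to 0.87) and miR-100-5p by -1.43 ± 0.79 (-3.10 to 0.25), all with edgeR adjusted p of 0.787 or above. Without HF6 unfiltered HDM, where the library left has 0 counts, miR-100-5p turned to 5.20. Of all entries 0.562% were called (0 higher, 3 lower). That count was 0 without HF6 or HF7 filtered HDM, HF6 unfiltered HDM or either plate 1 library, 1 without any 1 library of plates 2 and 3, 7 without the HF7 pellet and 8 without the HF6 pellet, and 14 with only these groups in the fit.

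A ratio of 2 microRNAs within a library does not depend on scaling, so it was tested apart from the fit. There were 1.63 (HF6) and 1.66 (HF7) reads of miR-99a-5p per read of miR-125b-5p in filtered HDM, and 1.79 and 1.74 in unfiltered HDM. In cells the ratio was 3.70 and 5.0 in the HF6 and HF7 pellets, 2.94 and 3.33 on plate 1, 2.89 and 2.63 on plate 2, and 2.98 and 2.71 on plate 3. The 4 HDM libraries lay close together and the lowest cell library stood above them all. The mean log2 ratio was 0.77 ± 0.06 in HDM (SD, n = 4) and 1.68 ± 0.30 in cells (n = 8), a difference of -0.91 (two-sided exact permutation test over 495 rearrangements, p = 0.00404, the smallest it can give; 0.0121 after adjustment over 3 ratios). The direction held in 4 of 4 HDM libraries. Libraries of one HF number may share a culture, which the test does not take into account. With filtered HDM alone the difference was -0.96 and with unfiltered HDM alone -0.86, where 2 libraries against 8 allow no raw exact p under 0.0444 (0.133 after adjustment).

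The ratios with miR-100-5p gave no call. Its log2 ratio to miR-125b-5p was -8.67 ± 0.93 in HDM and -7.96 ± 0.94 in cells (n = 4 and n = 8), a difference of -0.71 (exact permutation p = 0.242, adjusted 0.364). That difference was -1.13 without HF6 unfiltered HDM, -0.39 without HF7 filtered HDM and -0.44 without the HF7 pellet, and -1.30 with filtered and -0.11 with unfiltered HDM alone. The log2 ratio of miR-99a-5p to miR-100-5p was 9.44 ± 0.88 in HDM and 9.64 ± 0.67 in cells (n = 4 and n = 8), a difference of -0.21 (exact permutation p = 0.626, adjusted 0.626).

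**Figure D3:**
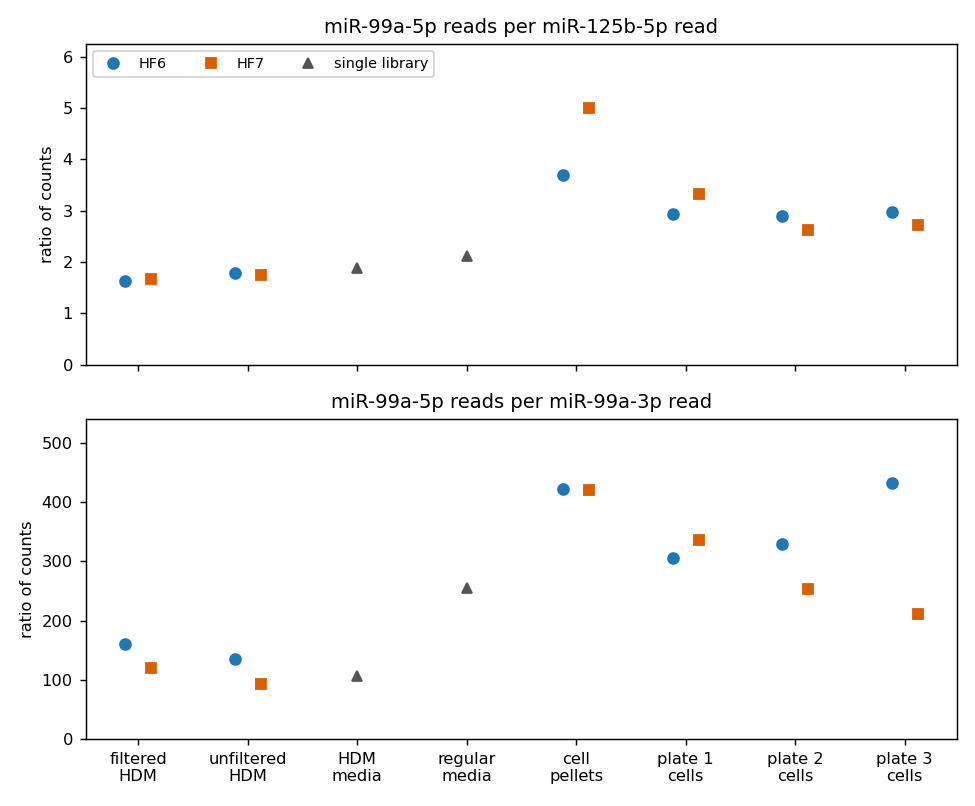
Reads of miR-99a-5p per read of miR-125b-5p and per read of miR-99a-3p in each library, with HDM at the left, media next and cells at the right. Both ratios are lower in the 4 HDM libraries (1.63 to 1.79, and 93 to 162) than in the 8 cell libraries (2.63 to 5.0, and 211 to 432).

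The other arms of the hairpins and clusters show how far their products move together. Of 14 such arms listed, 11 were analysed here and 10 passed the filter; miR-100-3p, miR-125b-1-3p and let-7a-2-3p were not analysed here, so the chromosome 11 hairpins had no arm of their own to compare. The chromosome 21 cluster was represented by miR-99a-3p and miR-125b-2-3p, the opposite strands of the miR-99a and miR-125b-2 hairpins, and by both strands of let-7c. 3 of these arms are shown because their genes lie in the chromosome 21 cluster, again with the seed in capitals.
miR-99a-3p: cAAGCUCGcuucuaugggucug
miR-125b-2-3p: uCACAAGUcaggcucuugggac
let-7c-5p: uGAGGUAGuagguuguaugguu
Their places are chr21:16539138-16539159, chr21:16590290-16590311 and chr21:16539838-16539859, all on the plus strand of GRCh38.

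The 2 strands of the miR-99a hairpin did not keep 1 ratio. There were 162 and 120 reads of miR-99a-5p per read of miR-99a-3p in filtered HDM (HF6 and HF7) and 136 and 93 in unfiltered HDM, against 211 to 432 in cells (median 332). The counts of miR-99a-3p behind this were 32, 27, 32 and 4 in the HDM libraries and 2 to 41 in the cell libraries. In TMM CPM the 3p arm stood at 11.6 to 15.1 in HDM and 5.68 to 10.7 in cells, with no overlap, but its log2 difference of HDM from plate cells, 0.50 ± 0.27, did not pass the test (edgeR adjusted p = 0.173). This ratio was singled out after its values were seen.

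miR-125b-5p and miR-125b-2-3p kept nearly the same ratio everywhere. There were 7.38 to 10.7 reads of miR-125b-5p per read of miR-125b-2-3p in HDM and 9.33 to 11.2 in cells. The 3p arm, which comes from chromosome 21 alone, held 18 to 365 counts per replicated library and was called in none of the 7 comparisons. The share of miR-125b-5p that comes from chromosome 11 was not measured.

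let-7c-5p, from the tumour-suppressive let-7 family and encoded less than a kilobase from miR-99a, was higher in HDM than in plate cells. It stood at 1678 (HF6) and 1241 (HF7) TMM CPM in filtered and 1196 and 1335 in unfiltered HDM, against 750 to 1152 on the 6 plates. Its log2 fold change of HDM over plate cells was 0.62 ± 0.17 (edgeR adjusted p = 0.0129), and 0.54 (0.0735) without HF6 filtered HDM. The pellets, at 1583 (HF6) and 1001 (HF7), overlapped HDM, and the differences of HDM from pellets were not called. Its deposited values had fractional parts in 13 of 14 libraries, so some of its reads were counted in part, and the part of this in the difference was not tested. The far more abundant let-7a-5p averaged 24290 TMM CPM in HDM and 17440 on plates, and was fractional in 13 of 14 libraries too. It was also called higher in HDM over plate cells (0.47, edgeR adjusted p = 0.0202). Whether let-7c-5p moved apart from let-7a-5p was not tested. There were 1.03 to 1.47 reads of miR-99a-5p per read of let-7c-5p in HDM against 2.13 to 3.45 in cells.

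**Figure D4:**
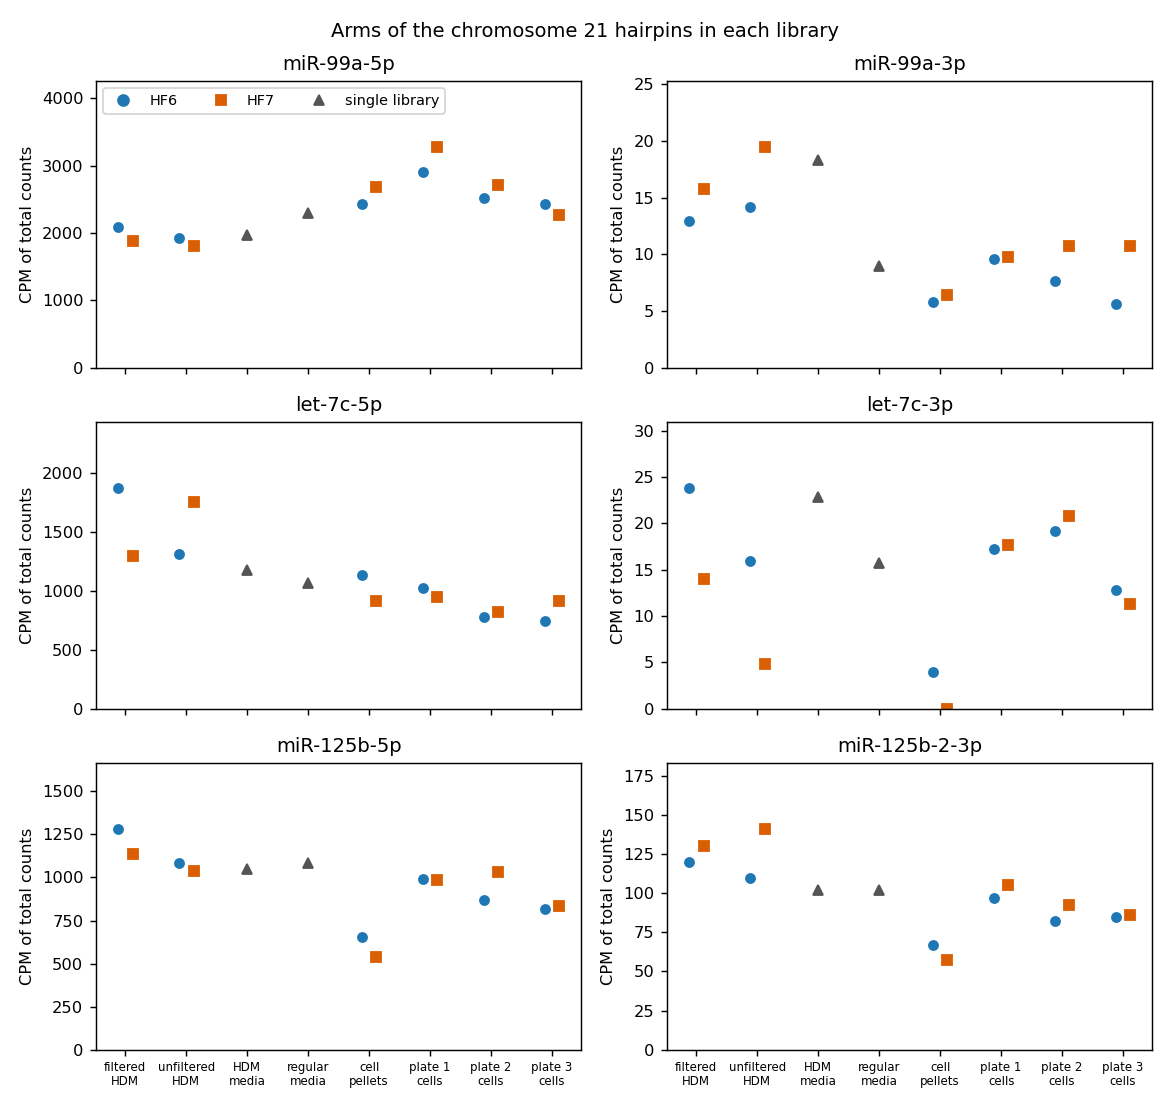
CPM of total counts for the 6 mature arms of the chromosome 21 cluster in each library, each panel on its own linear axis, with HDM at the left, media next and cells at the right. miR-99a-5p is lower in every HDM library than in every cell library, and let-7c-3p overlaps. On this scale the other arms are higher in every HDM library than in every cell library, let-7c-5p at 1299 to 1873 against 745 to 1138. miR-125b-5p (1040 to 1281 against 536 to 1034) and miR-125b-2-3p (110 to 141 against 57.4 to 105) run in parallel.

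Counted over the list, 0 of the 10 tested arms were higher and 3 lower in unfiltered HDM than in pellets, where 14.4% of all entries were higher and 16.5% lower (median log2 fold change -0.61 for the arms and 0.06 for all entries). In filtered HDM 1 arm was higher and 5 lower than in pellets, against 18.2% and 21% of all entries (medians -0.93 and 0.09). In pellets over plates 5 arms were higher and 1 lower, against 17.2% and 15.4% (medians 1.04 and -0.09). In plates 2 and 3 over plate 1, 0 arms were higher and 4 lower, against 11.4% and 14.6% (medians -1.03 and 0.02). In HDM over plates 2 were higher and 2 lower, against 15% and 16.1% (medians -0.01 and -0.04). Apart from let-7c-5p, let-7a-5p and let-7c-3p, all arms called belong to the chromosome 19 cluster of miR-99b, let-7e and miR-125a. let-7c-3p, the other strand of let-7c, had 59 and 24 counts in filtered HDM against 15 and 0 in pellets and 16 to 80 on plates. Its call in filtered HDM over pellets (1.89, edgeR adjusted p = 0.0113) was lost in 4 of 21 alternatives, among them leaving out HF6 filtered HDM (1.64, 0.0823), and stood at 8.46 without the HF6 pellet, where the pellet left has 0 counts. In pellets over plates its call (-1.78, 0.0107) was lost in 2 of 20, and stood at -8.29 without the HF6 pellet.

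Those chromosome 19 relatives share the seeds of miR-99a and miR-125b, so the make-up of each seed family was computed. miR-99b-5p made up 1.26 to 1.82% of the ACCCGUA family in HDM, against 10.2% and 7.27% in the HF6 and HF7 pellets. Its plate values were 8.77% (HF6) and 6.21% (HF7) on plate 1, 3.77% and 2.71% on plate 2, and 1.53% and 1.67% on plate 3. miR-125a-5p made up 4.37 to 7.33% of the CCCUGAG family in HDM, against 39.2% and 32.0% in the pellets. On plate 1 it made up 34.2% (HF6) and 28.7% (HF7), on plate 2 15.4% and 9.40%, and on plate 3 6.27% and 4.40%. miR-99a-5p and miR-125b-5p made up nearly all of the rest. In the single media libraries miR-99b-5p made up 0.879% (HDM media) and 0.995% (regular media) and miR-125a-5p 3.48% and 5.12%.

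**Figure D5:**
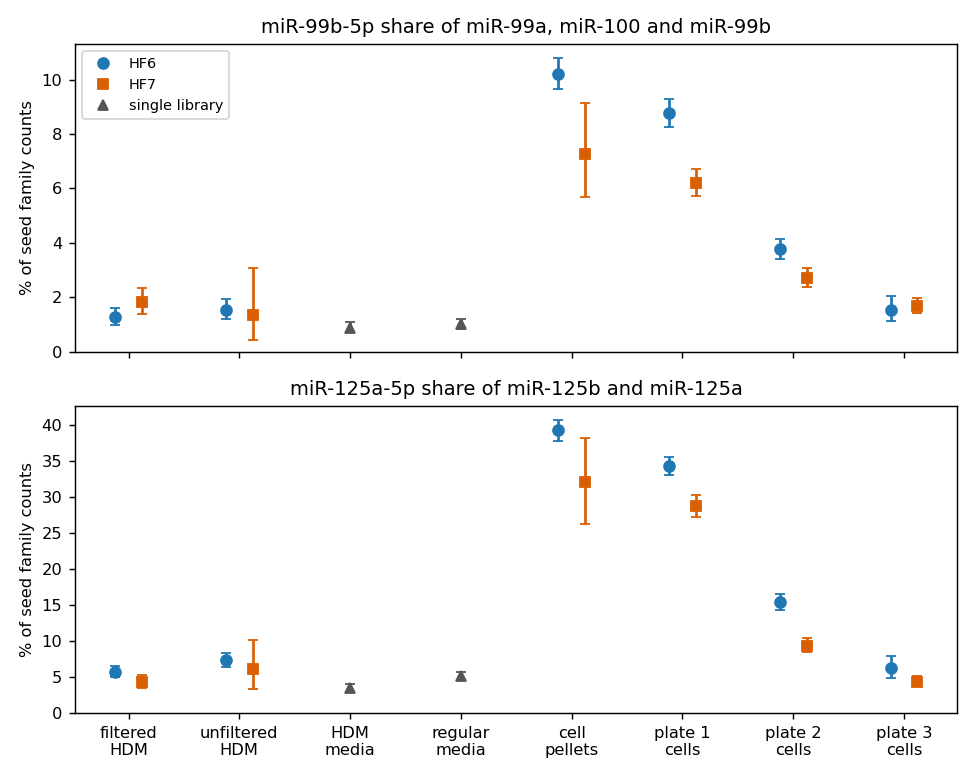
Percent of ACCCGUA seed family reads that are miR-99b-5p, and of CCCUGAG seed family reads that are miR-125a-5p, in each library, with exact binomial 95% intervals; HDM is at the left, media next and cells at the right. Both shares are high in pellets and on plate 1 and low in HDM, in the media and on plate 3.

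Pellets and plates are both cellular, and none of the 3 microRNAs was called between them. miR-99a-5p differed by 0.22 ± 0.18 (edgeR adjusted p = 0.356; -0.16 to 0.60), miR-125b-5p by -0.30 ± 0.21 (0.287; -0.76 to 0.15) and miR-100-5p by 1.38 ± 0.57 (0.0712; 0.17 to 2.59). Both pellets were among the libraries that let miR-100-5p past the filter, so its value here is not independent of that selection. Among all entries 32.6% were called (92 higher, 82 lower; 61 and 149 with total-count scaling, which moved the median to -0.42). With that scaling miR-99a-5p turned to -0.06 and miR-125b-5p was called lower in pellets (-0.62, adjusted p = 0.0121). It was also called lower without the HF6 pellet (-0.70, adjusted p = 0.0325).

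Plates 2 and 3 were set against plate 1, and none of the 3 microRNAs passed the test. miR-99a-5p averaged 2515 ± 142 TMM CPM on plate 2 and 2315 ± 196 on plate 3, against 3432 ± 218 on plate 1, a log2 difference of -0.51 ± 0.19 (edgeR adjusted p = 0.0573; -0.90 to -0.11). All 4 libraries of plates 2 and 3 lay below both libraries of plate 1. miR-125b-5p differed by -0.35 ± 0.22 (0.262; -0.81 to 0.12) and miR-100-5p by -0.77 ± 0.57 (0.346; -1.99 to 0.45). Of all entries 26% were called (61 higher, 78 lower; 102 and 66 with total-count scaling; 60 in all without HF6 plate 1, 73 without HF7 plate 1 and 209 without the HF6 pellet). miR-99a-5p passed the threshold without the HF6 pellet (-0.49, adjusted p = 0.0149) and without the HF7 pellet (-0.41, 0.0304).

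HF7 was compared with HF6 within the 6 groups, and the 3 microRNAs did not differ beyond the spread. The log2 differences were -0.09 ± 0.13 for miR-99a-5p (-0.36 to 0.19), -0.14 ± 0.15 for miR-125b-5p (-0.45 to 0.17) and -0.18 ± 0.48 for miR-100-5p (-1.19 to 0.83), with edgeR adjusted p of 0.884 or above. edgeR called 0% of the 534 entries, with 39 at an unadjusted p under 0.05, and DESeq2 called 1.

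Across the 14 libraries, miR-99a-5p and miR-125b-5p did not run together (Pearson r = 0.02 of log2 CPM, a description over libraries that share groups and scaling). miR-99a-5p and miR-100-5p, whose reads were not fully separated, had r = 0.68, and the part of shared reads in this value was not tested. For miR-100-5p and miR-125b-5p r was 0.04. Among entries averaging at least 20 CPM, the patterns most like miR-99a-5p were those of miR-203a-3p (r = 0.95), miR-126-3p (0.92) and miR-99b-5p (0.91). Most like miR-125b-5p were miR-16-2-3p (0.85), its own hairpin partner miR-125b-2-3p (0.83) and miR-105-5p (0.81). Most like miR-100-5p were miR-652-3p (0.82), miR-33a-3p (0.79) and miR-149-5p (0.76), on counts of miR-100-5p no higher than 18.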

How the data were processed

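The table holds expected counts per mature miRNA, deposited without normalization, for 14 of the 15 labelled samples; the HDM medium without cells was not analysed here. RNA was extracted with miRNeasy and libraries were made with the NEXTflex small RNA kit, per the labels' protocols. Cutadapt 2.10, Bowtie 1.3.1, FastQC and GRCh38 are named in the submitters' processing notes. The annotation release and the rule for fractional reads are not given in the sources used here.

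Counts were rounded and the 12 libraries of the 6 replicated groups were fitted together in edgeR 4.0.16 (R 4.3.3; TMM, filterByExpr by group, quasi-likelihood F test, 6 residual degrees of freedom). The filter left 534 entries with 99.96% of counts. A call is a Benjamini-Hochberg adjusted p under 0.05 over these. Standard errors are the log2 fold change over the root of F, and errors of levels are SDs. Ratios used counts + 0.5 and scipy 1.17.1. Replicates differed by a chi-square per degree of freedom of 13.3 to 126, so none was a copy. Alternatives included DESeq2 1.42.0 and limma-voom 3.58.1. The edgeR fit of filtered HDM against pellets was also run on simulated counts. These had a single spread for all entries and changes in filtered HDM alone, a simpler setting than the data. Locations are from GENCODE release 29.

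The 3 microRNAs, the arms and the marker lists (colorectal epithelial, stromal, endothelial, leukocyte, erythroid, muscle) were chosen with earlier results of these data known. Named beside the members were the arms of their clusters and the 3 entries most correlated with each.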

Additional observations from a re-analysis of the deposited data

Results flagged for a closer look

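The 3 microRNAs were also present in the 2 single media libraries, which no comparison uses, above the 3 counts taken as the limit of a count of 0. miR-99a-5p had 9464 counts in HDM media and 11229 in regular media. miR-125b-5p had 5049 counts in HDM media and 5318 in regular media. miR-100-5p had 11 counts in HDM media and 15 in regular media. In TMM CPM, miR-99a-5p stood at 1649 in HDM media and 2242 in regular media, miR-125b-5p at 880 and 1062, and miR-100-5p at 1.92 and 2.995. The ratio of miR-99a-5p to miR-125b-5p was 1.87 in HDM media and 2.11 in regular media, between the HDM range (1.63 to 1.79) and the cell range (2.63 to 5.0). There were 108 and 255 reads of miR-99a-5p per read of miR-99a-3p in HDM media and regular media, and 10.3 and 10.7 reads of miR-125b-5p per read of miR-125b-2-3p. With 1 library each there is no replicate check, and because the medium without cells was not analysed here, what the medium itself contributes was not measured.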

How the results depend on the processing

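The lower miR-99a-5p in HDM than in plate cells and its lower ratio to miR-125b-5p kept their direction in all alternatives run (-0.75 to -0.47 and -0.96 to -0.77), and the ratio lost its call only with filtered (-0.96) or unfiltered (-0.86) HDM alone. Unless stated, the cause of a change was not tested.

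With total counts as the only scaling, against pellets miR-99a-5p stood at -0.45 in unfiltered and -0.36 in filtered HDM, miR-125b-5p at 0.82 and 1.01, and miR-100-5p in unfiltered HDM at 0.095; pellets over plates gave -0.064 for miR-99a-5p and -0.62 for miR-125b-5p, and HF7 over HF6 gave 0.014 for miR-99a-5p. In filtered HDM against pellets miR-125b-5p was called with DESeq2 (0.57), RLE size factors (0.57) and at least 50 counts in 2 libraries (0.55), and miR-99a-5p was not called with no low-count filter (-0.67). miR-99a-5p on plates 2 and 3 was called with RLE (-0.44) and voom (-0.51). HF7 over HF6 turned to 0.022 for miR-99a-5p with at least 50 counts, a filter miR-100-5p did not pass. The ratio of miR-99a-5p to miR-100-5p turned to 0.34 with filtered HDM alone.

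Calls over all entries moved as follows. Filtered over unfiltered HDM gave 6 with DESeq2, 5 with no filter, 0 with plates grouped by HF number and 14 with only the groups compared. DESeq2 gave 1 for HF7 over HF6. Voom gave 102 for unfiltered HDM over pellets, 69 for pellets over plates and 216 for plates 2 and 3. Plates grouped by HF number gave 54 (unfiltered HDM over pellets), 95 (filtered HDM over pellets), 38 (pellets over plates) and 49 (HDM over plates), with miR-99a-5p at -1.01 and -0.78 against pellets, not called; plates 2 and 3 could not be tested there. Only the groups compared gave 74 and 118 against pellets, with fewer libraries in the fit.

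Leaving out 1 library at a time, calls ranged from 67 to 221 (unfiltered HDM over pellets), 136 to 258 (filtered HDM over pellets), 0 to 8 (filtered over unfiltered HDM), 60 to 209 (plates 2 and 3) and 86 to 226 (HDM over plates). miR-99a-5p ranged from -0.71 to -0.60 in filtered HDM over pellets, -0.55 to -0.36 on plates 2 and 3, and -0.12 to 0.022 in HF7. In filtered HDM over pellets the -0.78 of the full fit was thus a larger drop than any of these fits gave. miR-125b-5p ranged from 0.48 to 1.01 in filtered HDM over pellets and -0.70 to -0.12 in pellets over plates. miR-100-5p ranged from -1.97 to 5.20 in filtered over unfiltered HDM, where the remaining unfiltered library has 0 counts, -3.03 to 0.39 in HDM over plates, -0.48 to 0.025 in HF7, and -6.93 to -0.12 in unfiltered HDM over pellets. Its ratio to miR-125b-5p ranged from -1.13 to -0.39, and from -1.30 to -0.11 over all alternatives. The ratio of miR-99a-5p to miR-100-5p ranged from -0.51 to 0.19.

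The shared HF numbers are not stated to pair libraries, and the correlation of their deviations was over 0.1 in 6 of 15 pairs of groups (-0.23 to 0.34). With the HF number as a replicate block, calls numbered 171, 212, 3, 181, 144 and 168 in the 6 comparisons other than HF7 over HF6, miR-99a-5p stood at -1.01, -0.78 and -0.68 in the 3 HDM comparisons with cells, and the ratio of miR-99a-5p to miR-125b-5p had an adjusted exact permutation p of 0.0267; no call for the 3 microRNAs changed. The 0 to 18 counts of miR-100-5p limit its values.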
